A study of Mus musculus with 9 samples.

Results

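The genes described here build and run the mitotic machine: the kinases of mitotic entry, the chromosomal passenger complex, the spindle checkpoint, the kinetochore, the anaphase machinery, spindle proteins and the proteins of cytokinesis. A fixed list of 53 gene symbols was matched to the gene names of the deposited table, and all 53 were found among its 28998 genes. Mitotic kinesins, cyclins and condensins were not part of the list. RNA was measured in bone marrow-derived macrophages, grown by the labels from bone marrow monocytes of wild-type c57 mice with GM-CSF, a growth factor that drives myeloid cells to divide and mature, for 7 days. The 9 libraries are 3 of Control cells, 3 of cells given JHU083 for 36 h and 3 of cells given WGFT17 for 36 h. JHU083 is known as a prodrug of a glutamine antagonist, and WGFT17 is a code name about which the labels say nothing more. The labels give no dose for either drug and give neither the treatment of the Control cells nor how long they were kept. The labels also call the cells an adherent cell line and do not say whether replicates are separate cultures or animals, so p-values measure the spread between these libraries only, which may be technical.

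Mitosis needs each of these functions in turn. Plk1 and the Aurora kinases drive entry and spindle assembly, the kinetochore ties each chromosome to microtubules, and the spindle checkpoint holds the anaphase promoting complex in check until every chromosome is attached. That ubiquitin ligase, with Cdc20 and Ube2c, then destroys securin (Pttg1) and cyclin B, separase (Espl1) opens cohesin, and the central spindle and a contractile ring divide the cell. Most of the genes are transcribed late in the cell cycle, in cells that are dividing, through Foxm1, Mybl2 and the MuvB complex at promoters that often carry a CCAAT box and a cell cycle homology element (TTTGAA, or TTTAAA in some genes). Macrophages that have matured and left the cell cycle express little of them.

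Promoters of the members are given first, since a list of gene names makes no use of their letters. RefSeq promoter windows of build GRCm38.p6, from 250 bases before to 50 bases after the start, were found for 44 of the 53 members, in 50 windows. CCAAT, searched on both strands, was in 39 of the 50 windows (78%) and in 37.4% of all 32851 promoter windows. At least 2 copies were in 48% of the member windows and 11.7% of all. TTTGAA, on either strand and from 100 bases before the start on, was in 30 member windows (60%) and 8.01% of all, and TTTAAA in 10% and 5.61%. A CCAAT together with either of these elements near the start was in 54% of the member windows and 4.99% of all. A match is a description of letters and not a binding site.

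The 7 promoters below belong to Plk1, Ube2c, Aspm and Cdc20, which had some of the largest falls with WGFT17, and to Bub3, Ckap5 and Pttg1, which had the smallest. They are printed from 5′ to 3′ on the gene's strand, with CCAAT or its reverse complement ATTGG in capitals anywhere in the window, and TTTGAA, its reverse complement TTCAAA, or TTTAAA in capitals from 100 bases before the start on.

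Plk1, chr7:122159185-122159484, plus strand: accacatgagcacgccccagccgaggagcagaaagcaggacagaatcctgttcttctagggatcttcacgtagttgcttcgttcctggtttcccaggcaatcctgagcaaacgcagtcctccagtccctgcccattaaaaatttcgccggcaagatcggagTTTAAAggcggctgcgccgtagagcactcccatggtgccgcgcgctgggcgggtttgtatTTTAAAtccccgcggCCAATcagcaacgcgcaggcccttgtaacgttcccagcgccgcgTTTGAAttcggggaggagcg
Ube2c, chr2:164769679-164769978, plus strand: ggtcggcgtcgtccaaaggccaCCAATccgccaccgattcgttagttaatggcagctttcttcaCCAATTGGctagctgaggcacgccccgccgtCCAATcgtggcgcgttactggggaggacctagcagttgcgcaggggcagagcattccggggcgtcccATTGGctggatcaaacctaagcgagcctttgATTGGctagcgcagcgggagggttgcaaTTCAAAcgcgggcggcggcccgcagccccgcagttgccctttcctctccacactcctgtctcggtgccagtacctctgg
Aspm, chr1:139454523-139454822, plus strand: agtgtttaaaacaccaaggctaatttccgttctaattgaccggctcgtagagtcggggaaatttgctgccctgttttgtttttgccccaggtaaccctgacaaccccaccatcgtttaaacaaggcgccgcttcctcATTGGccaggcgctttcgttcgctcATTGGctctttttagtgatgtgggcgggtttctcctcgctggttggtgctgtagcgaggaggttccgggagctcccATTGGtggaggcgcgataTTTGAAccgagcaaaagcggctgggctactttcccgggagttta
Cdc20, chr4:118437294-118437593, minus strand: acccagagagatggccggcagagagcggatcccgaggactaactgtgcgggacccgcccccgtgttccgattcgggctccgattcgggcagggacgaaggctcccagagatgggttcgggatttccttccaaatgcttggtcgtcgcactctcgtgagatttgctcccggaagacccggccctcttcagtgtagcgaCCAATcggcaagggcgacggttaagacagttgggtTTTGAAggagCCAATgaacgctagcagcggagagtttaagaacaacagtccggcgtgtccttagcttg
Bub3, chr7:131560120-131560419, plus strand: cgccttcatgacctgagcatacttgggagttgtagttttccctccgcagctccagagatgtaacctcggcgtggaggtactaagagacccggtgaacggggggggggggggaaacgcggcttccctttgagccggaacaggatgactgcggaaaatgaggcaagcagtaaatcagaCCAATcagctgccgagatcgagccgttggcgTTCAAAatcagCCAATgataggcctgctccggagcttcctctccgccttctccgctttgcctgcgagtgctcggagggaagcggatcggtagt
Ckap5, chr2:91526512-91526811, plus strand: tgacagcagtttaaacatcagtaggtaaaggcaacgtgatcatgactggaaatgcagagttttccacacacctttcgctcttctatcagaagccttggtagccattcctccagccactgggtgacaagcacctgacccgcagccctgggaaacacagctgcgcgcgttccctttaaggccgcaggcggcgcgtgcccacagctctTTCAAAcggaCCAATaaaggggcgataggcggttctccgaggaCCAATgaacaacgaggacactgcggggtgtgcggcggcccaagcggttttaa
Pttg1, chr11:43425932-43426231, minus strand: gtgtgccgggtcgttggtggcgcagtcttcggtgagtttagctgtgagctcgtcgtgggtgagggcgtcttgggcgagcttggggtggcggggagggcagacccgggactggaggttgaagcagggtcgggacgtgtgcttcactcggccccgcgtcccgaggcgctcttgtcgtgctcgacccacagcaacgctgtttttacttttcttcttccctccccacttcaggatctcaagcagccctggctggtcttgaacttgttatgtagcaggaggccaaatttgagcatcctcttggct

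The Plk1 promoter holds 1 CCAAT, 2 TTTAAA and 1 TTTGAA in these positions, and that of Ube2c holds 6 CCAAT on either strand, a pair of them overlapping in CCAATTGG. Bub3 (the first of its 2 windows) and Ckap5 each hold 2 CCAAT and 1 TTTGAA element on the reverse strand, although their levels moved little. The printed Pttg1 window holds none of the letters searched. It lies wholly within the gene's deposited coordinates (chr11:43420250-43426251, minus strand), so bases before that start were not searched. Over the members with a promoter and a test, the median log2 change with WGFT17 against Control was -2.79 for the 29 with TTTGAA or TTTAAA near the start and -2.62 for the 14 without, and the ranges overlapped. Split by CCAAT in the window, it was -2.69 for the 32 with and -2.79 for the 11 without, with overlapping ranges. Pttg1 is counted among those without in both splits.

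All 53 members were detected in every library. Library totals were between 56624220 and 69112134 expected counts, of which about 4 stand for 1 read pair. The median member had 1658 to 1805 counts in the Control libraries, 1871 to 1931 with JHU083 and 245 to 264 with WGFT17. A mean of at least 1 FPKM (fragments scaled to transcript length and library depth) over the 9 libraries was needed for a test, and 51 members passed. Cdc25c, a phosphatase of mitotic entry, and Cenpk, a kinetochore protein, had means of 0.697 and 0.50 FPKM and were not tested. Just above the minimum were Cenpf at 1.13 and Sgo2a at 1.16. A gene was called at a Benjamini-Hochberg adjusted p under 0.05 over all 11798 genes tested, in 1 edgeR quasi-likelihood fit of all 9 libraries.

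Some libraries stood apart from their labels' cell type. Summed counts of photoreceptor genes were 31.8 to 41.3 CPM (counts scaled to library size) in Control and 36.6 with JHU083 replicate 3, but 0.742 to 1.16 in the other 5 libraries. Heart muscle genes were at 218 to 256 CPM in Control, at 159, 0.510 and 267 with JHU083 replicates 1, 2 and 3, and at 0.289 to 0.437 with WGFT17. The 8 macrophage markers summed to 17294 to 19539 CPM over the 9 libraries, and 2 rose and 3 fell with WGFT17. Their log2 changes with WGFT17 ran from -1.03 for Mrc1 to 0.24 for Mertk. Abundant genes weigh most in such a sum: in FPKM, Lyz2 made 7795 of the 9624 of this list in Control replicate 1. Markers of fibroblasts and stroma summed to 23519 to 25310 CPM in Control, 16201 to 18374 with JHU083 and 7334 to 7918 with WGFT17. All 10 of the 12 that could be tested fell with WGFT17 (median log2 change -2.38), Col1a1 and Acta2 among them. With JHU083, 8 of these 10 were called lower (median -0.48). Markers of neutrophils summed to 46.0 to 52.8, 11.8 to 14 and 0.978 to 1.88 CPM, in the same order of groups, and all 3 of the 9 that could be tested fell with both drugs. The 10 liver genes summed to 1069.9 to 1194 CPM in Control, 149 to 601 with JHU083 and 204 to 488 with WGFT17, and 10 fell with JHU083 and 9 with WGFT17. Endothelial markers summed to 36.7 to 43.7 CPM in Control, 42.2 to 49.8 with JHU083 and 15.0 to 20.3 with WGFT17, and all 3 of the 5 that could be tested fell with WGFT17. B and T cell markers summed to 59.4 to 71.6, 55.9 to 60.4 and 32.2 to 34.5 CPM. The 2 of 8 that could be tested, Cd79b and Cd4, fell with WGFT17. Untested Cd8a went the other way, from 0 to 0.07 FPKM in Control to 0.23 to 0.71 with WGFT17. Cd3d and Cd3e, also untested, were highest in WGFT17 replicate 3, at 0.53 and 0.33 FPKM. Of the 6 dendritic cell markers Itgax alone could be tested, at 31.6 to 42.5 FPKM in Control and 7.48 to 8.71 with WGFT17, and it fell, whereas Ccr7 was at 0.06 to 0.08 FPKM in Control and 0.43 to 0.96 with WGFT17. Of the 5 erythroid markers 2 could be tested, and neither was called with either drug. Beside these counts, 30.0% of all genes tested were called lower and 28.0% higher with WGFT17, and 12.5% lower and 11.5% higher with JHU083. No marker of these lists was at 0 in all 9 libraries. The libraries are bulk RNA, in which fewer cells of a type and less RNA per cell cannot be told apart, and the part of each marker list in the changes below was not tested.

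With WGFT17 every tested member fell. The 53 members summed to 2067, 1989 and 1847 CPM in the Control libraries and to 459, 424 and 457 in the WGFT17 libraries, which is 1968 ± 112 against 447 ± 19.9 (SD, n = 3) and a 4.41-fold difference of the means. The median member was at 4.82 to 5.32 FPKM in Control and 0.75 to 0.82 with WGFT17. All 51 members tested were called lower than in Control and none higher. Of all genes tested 58.0% were called, 30.0% lower and 28.0% higher. The median log2 change of the members was -2.70, against 0.00 over all genes tested. For 44 of the 51 the fall was called and at least 4-fold, a size that 3.68% of all genes reached, and for 48 it was at least 2-fold, which 10.8% reached. In FPKM, the Control and WGFT17 libraries did not overlap for any of the 51, which was so in the same direction for 28.2% of all genes.

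**Figure D1:**
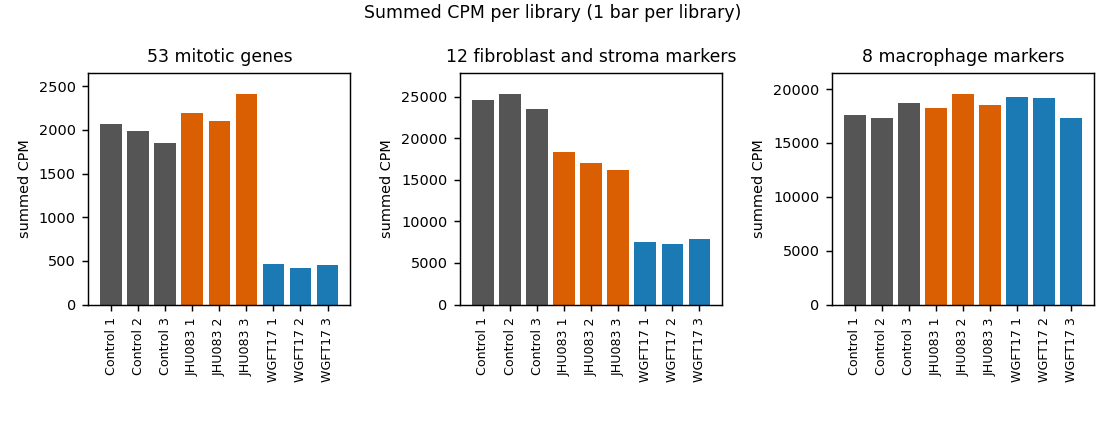
Summed CPM of the 53 members, of the fibroblast and stroma markers and of the macrophage markers in each of the 9 libraries, 1 bar per library, coloured by group, with a separate linear axis from 0 in each panel. The member sums are 1847 to 2067 in Control, 2104 to 2410 with JHU083 and 424 to 459 with WGFT17, while the macrophage sums overlap between Control and WGFT17.

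The fibroblast and stroma sum was itself 3.22-fold lower in WGFT17 than in Control. Per 1000 CPM of the fibroblast and stroma markers, the member sum in CPM was 80.5 ± 3.25 in Control, 130.5 ± 15.96 with JHU083 and 58.7 ± 1.68 with WGFT17 (SD, n = 3), a Control to WGFT17 ratio of 1.37. The sum weighs each marker by its counts. The tested markers fell unequally with WGFT17, from a log2 change of -4.93 for Col3a1 to -0.70 for the abundant Fn1. Their median fall was 5.20-fold and that of the members 6.48-fold. The ratio thus depends on the markers summed, and other choices were not tested. The 3 WGFT17 libraries also differ from all 3 Control libraries in the photoreceptor and heart genes, so for this comparison the drug and that difference cannot be told apart by leaving libraries out.

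Among the kinases and phosphatases of mitotic entry, all 5 tested members fell, with a median log2 change of -3.04. Plk1, the polo-like kinase that acts at centrosomes, kinetochores and the midbody, is at chr7:122159439-122169873 on the plus strand in GRCm38. It was at 19.8, 18.1 and 18.9 FPKM in Control, 17.4, 16.8 and 17.0 with JHU083 and 1.47, 1.63 and 1.60 with WGFT17. The Control and WGFT17 libraries were far apart, with a log2 change of -3.70 (SE 0.08, adjusted p = 8.24e-11), a 13-fold fall. Aurka, the Aurora kinase of spindle poles, fell 8.24-fold, Melk, a kinase of dividing cells, 9.22-fold, and Nek2, a centrosome kinase, 6.30-fold. Cdc25b, a phosphatase that activates the mitotic cyclin-dependent kinase, fell least in the group, 3.10-fold, from 7.44 FPKM in Control to 2.59 with WGFT17. Its relative Cdc25c, untested, was at 1.09 FPKM in Control and 0.12 with WGFT17.

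The chromosomal passenger complex corrects faulty attachments at the centromere and later moves to the central spindle. Its 4 genes and the 2 shugoshins, which protect centromeric cohesin, all fell (median -2.62). Incenp, the scaffold, had the highest level of the group, with 18.5, 18.7 and 17.2 FPKM in Control, 22.1, 22.8 and 19.6 with JHU083 and 6.98, 6.00 and 7.60 with WGFT17. Its fall was 2.85-fold (log2 change -1.51, SE 0.08, adjusted p = 5.68e-08). The kinase of the complex, Aurkb, fell 6.44-fold, borealin (Cdca8) 6.36-fold and survivin (Birc5) 13.3-fold, so the scaffold kept a larger share of its Control level than its partners. Sgo1 and Sgo2a fell 5.33-fold and 5.96-fold.

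The 6 spindle checkpoint genes had the smallest median fall of the 9 groups of function, -2.28. The kinases Bub1 and Ttk and the pseudokinase Bub1b fell 7.07-fold, 6.25-fold and 6.55-fold. Mad2l1, which binds and restrains Cdc20, fell 2.65-fold, and Kntc1, part of the complex that brings it to kinetochores, 3.80-fold. Bub3, which carries the Bub kinases to the kinetochore, stood apart. It was at 12.3, 11.9 and 10.8 FPKM in Control, 12.3, 11.8 and 10.1 with JHU083 and 10.4, 10.5 and 10.2 with WGFT17. The fall against Control was 1.21-fold (log2 change -0.27, SE 0.07, adjusted p = 0.00673). Bub3 shares 11674 bases with Fgfr2 on the opposite strand, whose mean was 1.61 FPKM, and whether the counting used strand is not given in the sources used here. Of the other members, Sgo2a, with a mean of 1.16 FPKM, shares 22986 bases with the opposite-strand gene Kctd18 (mean 1.09 FPKM). Cdca8, at 3.95 FPKM, shares 2264 bases with 9930104L06Rik (2.25 FPKM). Cdc25b, Cenpk, Cdc20 and Nusap1 share 53 to 334 bases with such genes.

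**Figure D2:**
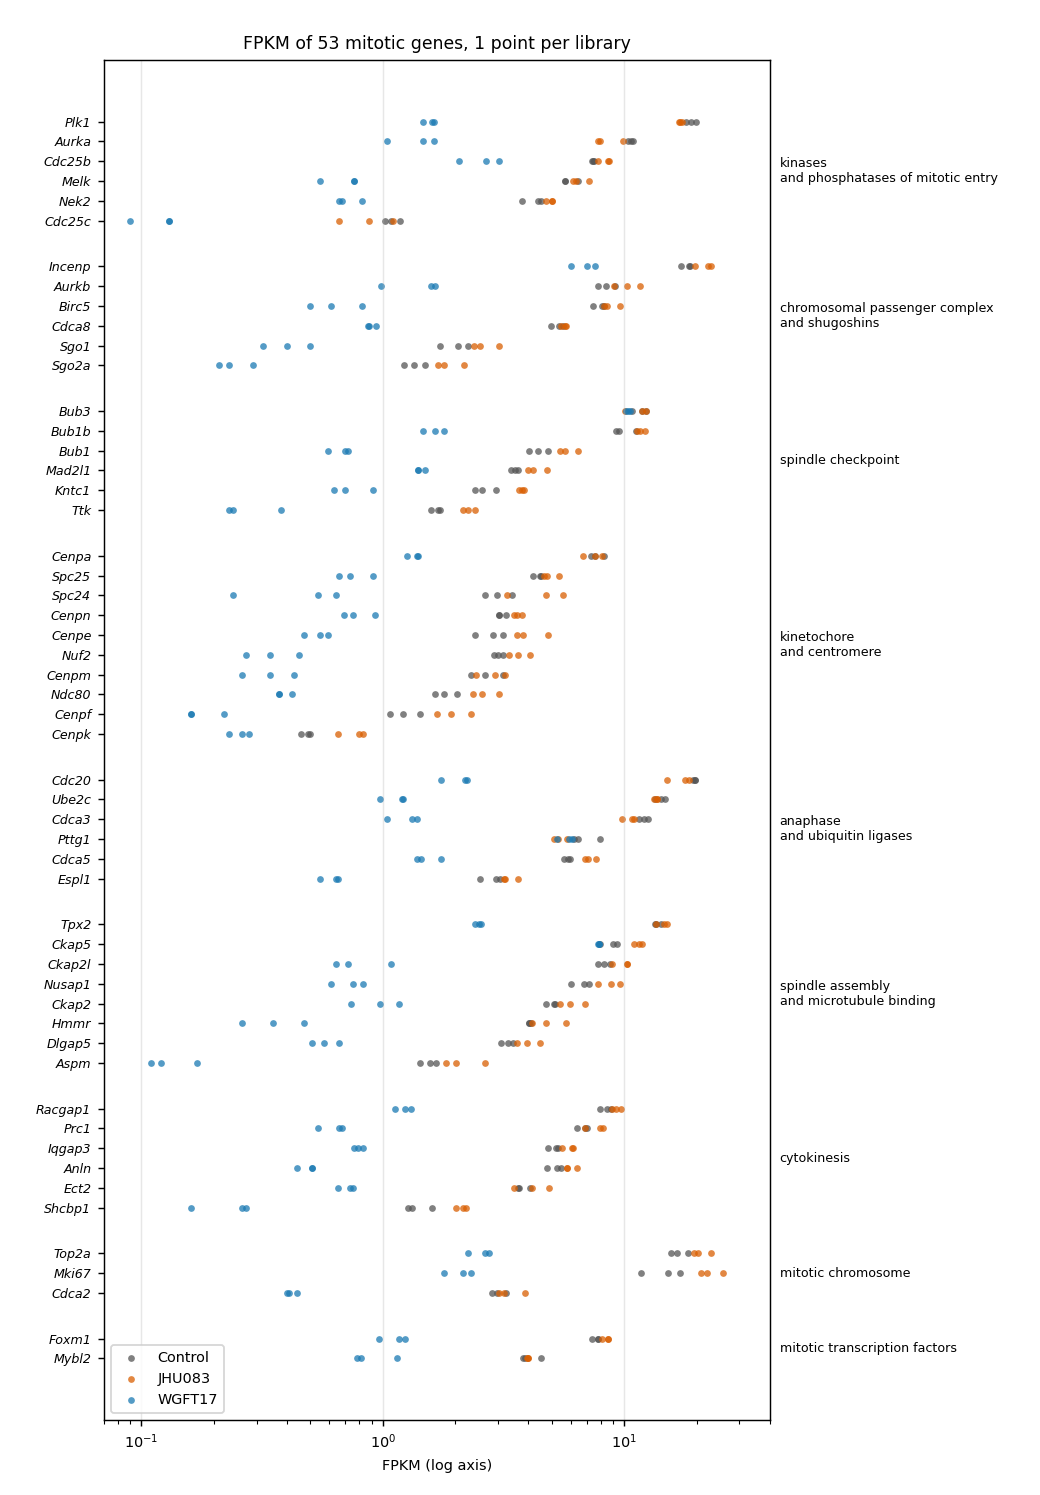
FPKM of the 53 members on a log axis, 1 point per library, coloured by group and ordered by function. In WGFT17 the points of Ube2c lie at 0.97 to 1.21 FPKM, far below the 13.5 to 14.8 of Control, whereas those of Bub3, Ckap5 and Pttg1 lie beside or near the other groups.

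At the kinetochore and centromere all 9 tested members fell (median -2.62). The 4 subunits of the Ndc80 complex, which holds the microtubule, fell 5.08-fold (Ndc80), 9.05-fold (Nuf2), 6.74-fold (Spc24) and 6.09-fold (Spc25). Cenpa, the histone variant that marks the centromere, was at 8.26, 7.56 and 7.31 FPKM in Control, 7.55, 6.76 and 8.12 with JHU083 and 1.39, 1.26 and 1.40 with WGFT17. This is a 6.14-fold fall (log2 change -2.62, SE 0.09, adjusted p = 1.26e-09). Cenpe, a kinetochore motor, fell 5.63-fold, Cenpf, a large microtubule-binding kinetochore protein, 7.32-fold, and Cenpm and Cenpn, of the inner kinetochore, 8.21-fold and 4.2-fold. Cenpk, untested, was at 0.48 FPKM in Control and 0.26 with WGFT17.

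The anaphase group showed the widest spread, from a log2 change of -3.76 to -0.35 (median -2.83). Cdc20, the activator of the anaphase promoting complex, was at 19.3, 19.7 and 19.6 FPKM in Control, 18.5, 17.8 and 15.1 with JHU083 and 1.74, 2.2 and 2.24 with WGFT17, a 10.2-fold fall (adjusted p = 1.09e-09). Cdc20 shares 53 bases with the opposite-strand gene Elovl1, which had a mean of 51.7 FPKM. Ube2c, the ubiquitin-conjugating enzyme of the same complex (chr2:164769898-164778822, plus strand), had the largest fall of all members. It went from 14.8, 14.2 and 13.5 FPKM in Control and 13.7, 13.7 and 13.3 with JHU083 to 1.21, 0.97 and 1.20 with WGFT17 (log2 change -3.76, SE 0.09, adjusted p = 1.53e-10). Cdca3, an adaptor that leads a mitosis inhibitor to destruction, fell 10.3-fold, separase (Espl1) 4.96-fold and sororin (Cdca5), which stabilises cohesin, 4.10-fold.

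Securin, the product of Pttg1, is the main substrate of this machinery, and its RNA moved least of the anaphase group. It was at 6.17, 7.90 and 6.41 FPKM in Control, 5.33, 5.10 and 5.78 with JHU083 and 6.09, 5.92 and 5.28 with WGFT17. The WGFT17 libraries lay below all Control libraries by a narrow margin (log2 change -0.35, SE 0.11, adjusted p = 0.0213). Without Control replicate 2, the highest library, the adjusted p was above 0.05, and the call was lost in 7 of 22 alternatives.

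Of the spindle proteins all 8 fell (median -2.94). Tpx2, which activates Aurka and nucleates microtubules at chromosomes, was at 14.2, 13.4 and 13.6 FPKM in Control, 14.6, 13.6 and 15.0 with JHU083 and 2.56, 2.50 and 2.42 with WGFT17, a 5.92-fold fall (adjusted p = 1.41e-10). Aspm, a spindle pole protein, was at 1.66, 1.57 and 1.43 FPKM in Control, 1.83, 2.01 and 2.66 with JHU083 and 0.11, 0.12 and 0.17 with WGFT17, a 12.3-fold fall (log2 change -3.62, SE 0.18). Hmmr, Ckap2l and Nusap1, microtubule-associated proteins of the spindle, fell 12.1-fold, 10.9-fold and 9.76-fold, Dlgap5 6.03-fold and Ckap2 5.59-fold. Ckap5, a microtubule polymerase that also serves cells between divisions, had the smallest fall of all members, 1.20-fold. It was at 9.31, 9.02 and 7.94 FPKM in Control, 10.96, 11.5 and 11.8 with JHU083 and 7.85, 7.80 and 7.84 with WGFT17 (log2 change -0.27, SE 0.06, adjusted p = 0.00268). Control replicate 3 was close to the WGFT17 libraries, and JHU083 was above both groups.

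The 6 cytokinesis genes fell by similar amounts (median -2.84, range -3.52 to -2.51). Racgap1, a subunit of the centralspindlin complex, was at 8.46, 8.80 and 7.92 FPKM in Control, 9.74, 9.22 and 8.86 with JHU083 and 1.12, 1.31 and 1.24 with WGFT17, a 7.38-fold fall (adjusted p = 1.89e-10). Prc1, which bundles the microtubules of the central spindle, and anillin (Anln), which scaffolds the contractile ring, fell 11.5-fold and 11.4-fold. Ect2, the exchange factor that activates RhoA at the equator, fell 5.69-fold, the scaffold Iqgap3 6.93-fold and Shcbp1, a partner of centralspindlin, 6.48-fold.

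The 3 genes of the mitotic chromosome fell together (median -2.92). Top2a, the topoisomerase that untangles sister chromatids, was at 18.3, 16.5 and 15.6 FPKM in Control, 20.2, 19.5 and 22.9 with JHU083 and 2.75, 2.26 and 2.64 with WGFT17, a 7.09-fold fall (adjusted p = 9.62e-10). Cdca2, a phosphatase-targeting subunit, fell 7.71-fold and Mki67, the proliferation marker that coats mitotic chromosomes, 7.54-fold. The transcription factors of the program fell as well. Foxm1 was at 7.76, 7.80 and 7.36 FPKM in Control, 8.10, 8.58 and 8.59 with JHU083 and 1.23, 0.96 and 1.17 with WGFT17, a 7.33-fold fall (adjusted p = 7.54e-10), and Mybl2 fell 4.77-fold.

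**Figure D3:**
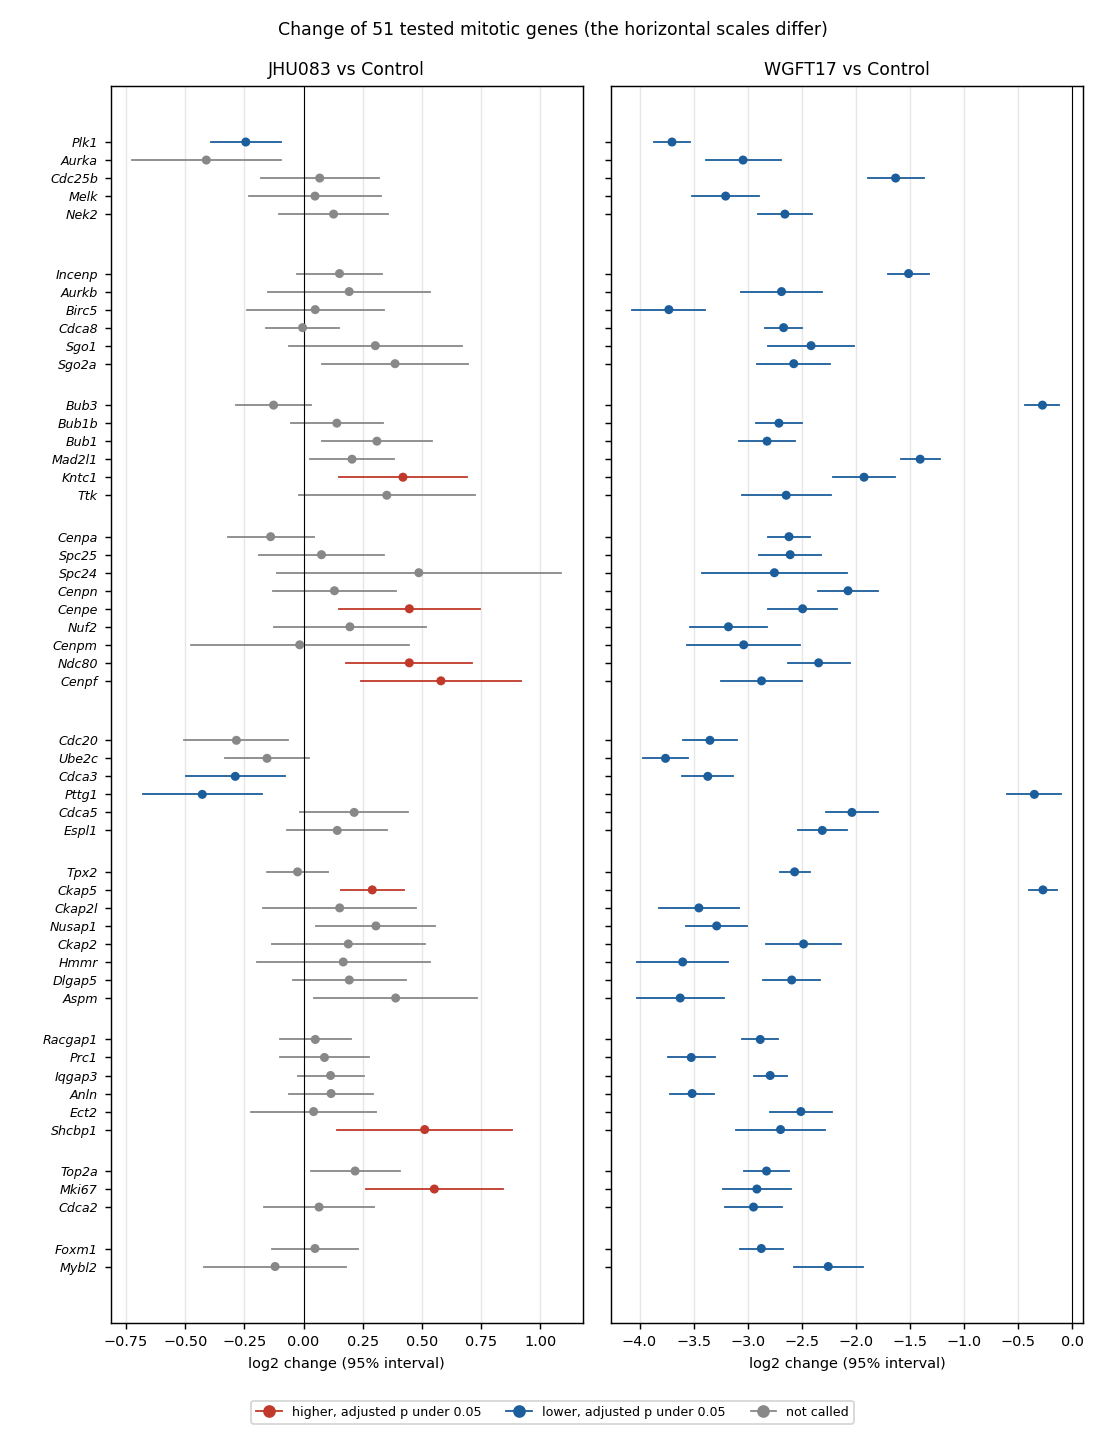
Fitted log2 change of each of the 51 tested members ordered by function, with its 95% interval, for JHU083 against Control and WGFT17 against Control (the horizontal scales differ, and colour marks the call). The WGFT17 changes lie between -3.76 and -0.27 and those of JHU083 between -0.43 and 0.58.

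By size, 10 members fell at least 10-fold with WGFT17 (Ube2c, Birc5, Plk1, Aspm, Hmmr, Prc1, Anln, Ckap2l, Cdca3 and Cdc20), 34 fell between 4-fold and 10-fold, 4 between 2-fold and 4-fold (Kntc1, Cdc25b, Incenp and Mad2l1) and 3 less than 2-fold (Pttg1, Bub3 and Ckap5). The 10 largest falls came from 5 groups of function. In WGFT17 the mean was under 1 FPKM for 33 of the 53 members, compared with 1 in Control and 2 with JHU083. Counts remained for each of them: the lowest in any WGFT17 library was 31, for Cenpm.

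With JHU083 most members were not called, and those called went both ways by small amounts. The member sum was 2191, 2104 and 2410 CPM, or 2235 ± 158 (SD, n = 3), 1.14-fold that of Control. Of the 51 tested members 7 were called higher (Mki67, Cenpf, Shcbp1, Cenpe, Ndc80, Kntc1 and Ckap5) and 3 lower (Pttg1, Cdca3 and Plk1), 10 in all. The background was 24.0% of all genes called, 11.5% higher and 12.5% lower, so the members' share of rises is near the background and their share of falls below it. The median log2 change of the members was 0.14, and 0.00 over all genes.

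The largest rise was that of Cenpf, at 1.43, 1.21 and 1.07 FPKM in Control, 1.92, 1.67 and 2.31 with JHU083 and 0.16, 0.16 and 0.22 with WGFT17 (log2 change with JHU083 0.58, SE 0.15, adjusted p = 0.0207). The groups did not overlap, but the call was lost without Control replicate 2, without Control replicate 3 and with no minimum FPKM. The group means of Cenpf were 1.24 FPKM in Control, 1.97 with JHU083 and 0.18 with WGFT17. Its mean over the 9 libraries, 1.13 FPKM, passed the minimum of 1 with the help of the high JHU083 values. Its entry into the test is thus not independent of its rise. Mki67 (chr7:135689784-135716361, minus strand) was at 17.0, 15.1 and 11.7 FPKM in Control, 22.1, 20.7 and 25.7 with JHU083 and 2.32, 1.79 and 2.15 with WGFT17. Its rise with JHU083 was 1.47-fold (log2 change 0.55, SE 0.13, adjusted p = 0.0129), and it was the 1 call of the 10 that stayed under 0.05 in all 22 alternatives. The other rises were 0.51 for Shcbp1, 0.45 for Cenpe and Ndc80, 0.42 for Kntc1 and 0.29 for Ckap5 on the log2 scale, with adjusted p from 0.007 to 0.0477. Ckap5 was called in 21 of the 22 alternatives, and Shcbp1 in 9 of 21.

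The falls were -0.43 for Pttg1 (SE 0.11, adjusted p = 0.0211), -0.29 for Cdca3 (SE 0.09, adjusted p = 0.0479) and -0.24 for Plk1 (SE 0.07, adjusted p = 0.0241). Aurka (-0.41, adjusted p = 0.0585) and Cdc20 (-0.28, adjusted p = 0.0607) were not called, although all of their JHU083 libraries were below all Control libraries. In FPKM, 32 of the 51 members (62.7%) had all JHU083 libraries above all Control libraries, which was so for 31.3% of all genes. In 5 (9.80%) they were below, as in 12.4% of all genes. FPKM lay higher with JHU083 over all genes. On log2 FPKM after adding 0.1 their median change was 0.09, against 0.00 in the main fit. Foxm1 and Racgap1, each with a fitted log2 change of 0.05, are among the 32. Of the 41 members not called, 40 had a 95% interval within 2-fold of Control in both directions and 35 within 1.5-fold. For Tpx2 it ran from -0.15 to 0.10 on the log2 scale.

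By function, the median log2 change with JHU083 was 0.26 in the checkpoint group, 0.22 on the mitotic chromosome, 0.20 at the kinetochore, 0.19 among spindle proteins, 0.17 in the passenger complex and shugoshins, 0.10 in cytokinesis, 0.05 among the entry kinases, -0.04 for the 2 transcription factors and -0.22 in the anaphase group. Of the 7 called higher, 3 are kinetochore genes, of 9 tested, and 2 of the 3 called lower are anaphase genes, of 6 tested. Over all genes 11.5% were called higher and 12.5% lower. Of these 5 genes, Ndc80 and Cenpf were each called in 17 of 21 alternatives, and Cenpe in 14 of 21. Pttg1 was called in 16 of 22 and Cdca3 in 8 of 22. The difference between groups was not tested.

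Transcript length moved with these small changes. Over the 51 members the JHU083 change had a Spearman correlation of 0.43 with the length of the longest transcript and -0.53 with GC content, and over 11791 genes 0.38 and -0.27. These are correlations across genes, which share libraries and are not independent replicates. The 17 shortest members, up to 3089 bases, had a median change of 0.07, and the 17 longest, from 4086 bases, of 0.20. The median member was 3645 bases long and the median gene 3120. With the trends on length and GC removed, an alternative added after the data were seen, 3 members were called higher (Mki67, Ndc80 and Cdca5) and none lower. Of the 10 calls, 8 were thus lost, those of Cenpf, Pttg1 and Plk1 included. Ckap5 was just over the threshold, with an adjusted p of 0.0505. The part of length and GC in the rises and falls was not tested beyond this.

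**Figure D4:**
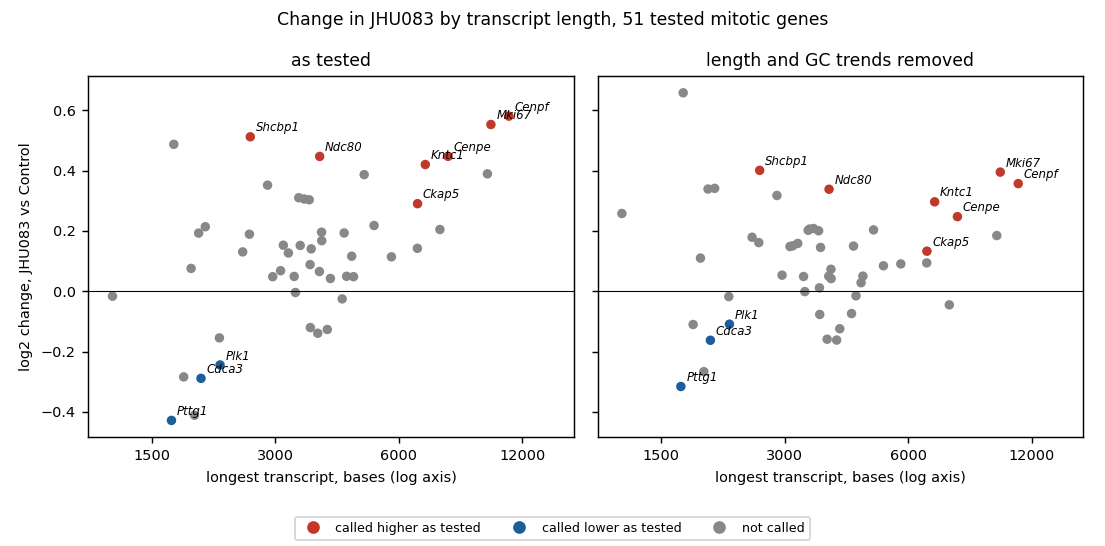
Log2 change with JHU083 against Control of the 51 tested members by transcript length in bases on a log axis, as tested (left) and with the trends on length and GC removed (right), with called members coloured and named. On the left longer members lie higher, with a Spearman correlation of 0.43, and on the right it is 0.07.

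The JHU083 libraries differ among themselves in the photoreceptor genes, which replicate 3 holds at the Control level. With the carriage of those genes as a term in the fit, the median log2 change of the members was 0.19. Only JHU083 holds libraries with and without these genes, so the term rests on its replicate 3 against replicates 1 and 2. The JHU083 change in that fit is that of replicate 3 alone against Control. Without JHU083 replicate 3, 4 members were called higher and 4 lower, and without Control replicate 3, 2 and 1.

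Between the drugs, nearly the whole set was lower with WGFT17 than with JHU083. Of the 51 tested members 49 were called lower and 2, Bub3 and Pttg1, were not called, where 24.4% of all genes were called lower. The median log2 change was -2.92, against 0.01 over all genes. At least 4-fold falls were called for 45 members and 3.02% of all genes, and at least 2-fold falls for 48 members and 7.98%. In FPKM the libraries of the 2 drugs did not overlap for these 49, which was so in the same direction for 25.9% of all genes. The JHU083 sum was 5.00-fold that of WGFT17. Doses are not given, so the drugs cannot be set side by side at a matched dose; both were given for 36 h. WGFT17 was compared with Control and with JHU083 on the same 3 WGFT17 libraries, so the values of these comparisons are not independent.

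The largest fall between the drugs was that of Aspm, -4.01 (SE 0.18, adjusted p = 1.45e-08), or 16.2-fold, and Birc5 and Hmmr followed with 13.7-fold and 13.6-fold. Pttg1 had the only positive value, 0.08 with a 95% interval from -0.17 to 0.33 (adjusted p = 0.609). Bub3 was at -0.15 with an interval from -0.30 to 0.01 (adjusted p = 0.118). Ckap5 fell by 0.56 on the log2 scale (SE 0.06, adjusted p = 1.63e-05), a value that includes its higher level with JHU083. All 7 members called higher with JHU083 were called lower with WGFT17 in both comparisons, 6 of them at least 5.08-fold below JHU083. Without JHU083 replicate 3, which leaves 2 JHU083 libraries as free of photoreceptor genes as the WGFT17 libraries, 50 members were called lower and the median was -2.90. JHU083 replicate 1, which stays in that fit, still held heart muscle genes at 159 CPM.

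The members' patterns over the 9 libraries were alike except for 3. Against the mean of the standardised members, Pearson's r over the 9 libraries was 0.27 for Pttg1, 0.70 for Bub3 and 0.85 for Ckap5, and 0.97 or more for the other tested members. These values describe 9 libraries in 3 groups and mostly restate the WGFT17 difference.

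Kinetochore, spindle and anaphase genes from lists that share no gene with the members were mostly called lower with WGFT17 too, where 30.0% of all genes were called lower and 28.0% higher. Of 28 other kinetochore and centromere genes tested, 24 were called lower with WGFT17 than in Control and none higher, with a median log2 change of -1.31, and of 24 other spindle, centrosome and cytokinesis genes 23 and none, with -1.84. Pimreg, a mitotic regulator, went from 6.00, 7.43 and 6.57 FPKM in Control to 0.36, 0.44 and 0.47 with WGFT17 (log2 change -4.06, adjusted p = 1.51e-09). Depdc1a went from 1.80, 1.36 and 1.39 FPKM to 0.06, 0 and 0.18, with JHU083 at 2.02, 1.5 and 1.9 (log2 change -4.30, SE 0.66). Of 17 subunits and partners of the anaphase promoting complex, most of which are present throughout the cell cycle, 12 fell, by a median of -0.32 over the 17. Of 11 genes of the DREAM and MuvB complexes, which hold the promoters of these genes silent or active, 5 fell (45.5%) and 2 rose (18.2%), with a median of -0.08.

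With JHU083, 7 of the 28 other kinetochore genes (25%) were called higher and none lower, against 11.5% higher and 12.5% lower of all genes. They include Nsl1, a subunit of the Mis12 complex, with 1.62, 1.79 and 1.35 FPKM in Control and 2.69, 2.87 and 2.23 with JHU083 (log2 change 0.62, adjusted p = 0.0123). Of the 24 other spindle, centrosome and cytokinesis genes 3 were called higher (12.5%), which is near the background. For these lists too, the part of length and GC was not tested.

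Among nearby lists, 10 mitotic kinesins tested had a median log2 change of -3.08 with WGFT17, all called lower, close to the members' -2.70. All 8 condensin genes were called lower (median -1.06), and 38 of 40 DNA replication genes (median -0.83), against 30.0% of all genes. With JHU083, where 11.5% of all genes were called higher, 5 of the 8 condensin genes were (median 0.29), 9 of 40 DNA replication genes (22.5%, median 0.10) and 2 of 10 kinesins (20%, median 0.06). The differences between these lists and the members were not tested.

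**Figure D5:**
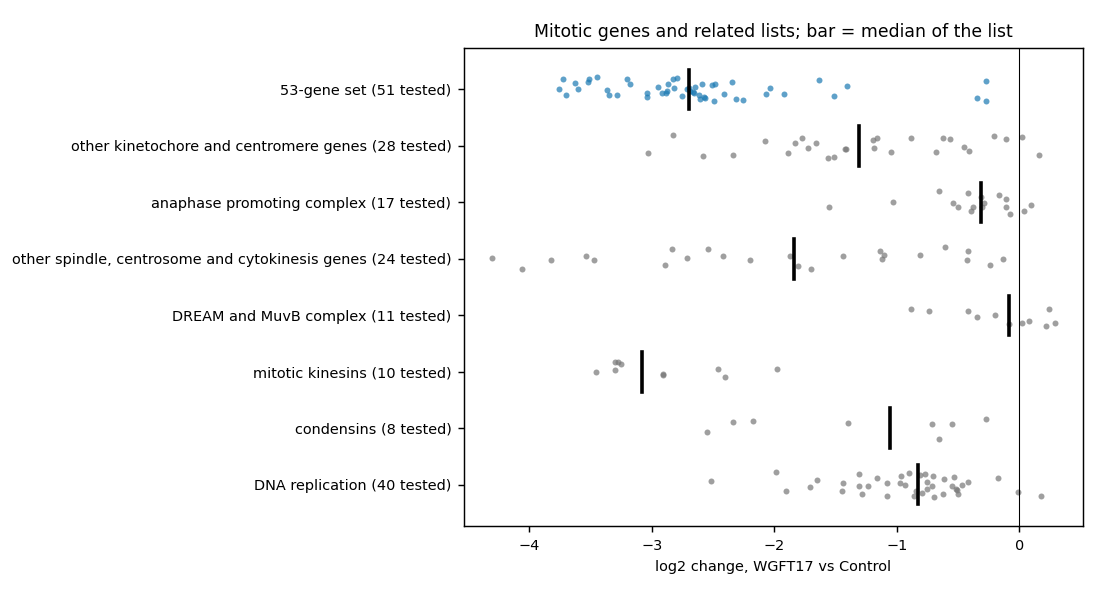
Log2 change with WGFT17 against Control of every tested gene of the 53-gene set and of 7 related lists, 1 point per gene, with a bar at the list's median. The medians of the set and of the kinesins lie at -2.70 and -3.08, and that of the DREAM and MuvB genes at -0.08.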

How the data were processed

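RNA of 9 libraries of mouse bone marrow-derived macrophages was made into stranded (dUTP) poly(A) libraries and sequenced as read pairs of 150 bases, per the labels' protocols. Of tools, the submitters' processing notes list HISAT2 2.2.1, cutadapt 1.9, edgeR, DESeq2 and StringTie 2.1.6, and of builds mm9, all without roles. The authors deposited 1 table of 28998 genes, with an expected count and an FPKM value per gene and library, per the file headers. The deposited expected counts are whole numbers whose excess at 4 and 8 is that of values made from coverage, about 4 per read pair. The deposited FPKM values are fragments scaled to length and depth by the authors. Coordinates in the table equal those of GENCODE M21 (GRCm38) for 49 of the 53 members and 90.2% of 28926 matched identifiers, so positions are given in GRCm38.

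The test was edgeR's quasi-likelihood test (4.0.16, R 4.3.3) of the expected counts, over the 11798 genes whose FPKM averaged 1 or more. All 9 libraries were fitted together and scaled by TMM, and Benjamini-Hochberg adjustment ran over all genes of a comparison. The biological coefficient of variation was 0.122. Errors of FPKM are SDs over 3 libraries, and SEs and 95% intervals belong to the fitted log2 changes. No replicate pair held identical values. Alternatives were DESeq2 1.42.0, limma 3.58.1 on log2 FPKM, other scalings and filters, counts divided by 4, a replicate block, a term for photoreceptor genes, libraries left out and, added after the data were seen, the removal of length and GC trends. The script was tested on simulated data.

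The members and gene lists were chosen with earlier results of these data known. Values in every library are given for the member with the highest mean FPKM of each group of function and for the members with the largest rise and fall of each comparison. Of the lists of related processes, the 2 called genes with the largest change per comparison are named, except 1 that is not reported here. Mki67 was given in full after its values were seen. Promoter sequences are RefSeq's, of build GRCm38.p6.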

Additional observations from a re-analysis of the deposited data

How the results depend on the processing

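The falls with WGFT17 kept their direction in all 22 alternatives: 48 of the 51 members were called lower than in Control in each of those in which they were tested, as were all 49 called lower than with JHU083. The exceptions against Control were Pttg1, Bub3 and Ckap5, the members with the smallest falls, which were lost in 7, 2 and 3 alternatives, Pttg1 also without Control replicate 2 or WGFT17 replicate 3. With a minimum mean of 5 FPKM only 22 members were tested, of which 22 and 20 were called lower than in Control and than with JHU083. The median against Control, -2.70, was then -2.88, and it was -1.60 and -2.44 with limma on log2 FPKM after adding 1 and 0.1, -2.60 with the photoreceptor term, -2.60 with length and GC trends removed, and -2.81 to -2.64 when 1 library was left out. The median against JHU083, -2.92, was -1.79 and -2.74 with limma, -2.75 with length and GC trends removed, and -2.94 to -2.86 when 1 library was left out. A pseudocount of 1 FPKM shrinks changes of members under 1 FPKM by construction. The photoreceptor term is estimated from JHU083 replicate 3 against replicates 1 and 2, so it cannot separate drug and carriage for WGFT17 against Control. Limma with 0.1 added moved the median of all genes against Control to 0.11, and removal of length and GC trends moved it to 0.16. That removal also turned 3300 higher and 3537 lower calls over all genes into 5291 and 2656 against Control, and 2403 and 2874 into 4746 and 2295 against JHU083.

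The calls with JHU083 against Control, 7 higher and 3 lower, depend on the settings. Higher calls were 2 with no minimum, 2 with a minimum of 5 FPKM, 15 and 12 with limma after adding 1 and 0.1, 11 with the photoreceptor term and 3 with length and GC trends removed. Lower calls were 1 with no minimum, 5 with DESeq2, 1 with limma after adding 1 and 1 after adding 0.1, 5 with counts divided by 4, 5 in a fit of the 2 groups alone and 0 with length and GC trends removed. Leaving out 1 library gave 2 to 8 higher calls (3, 2 and 4 without Control replicate 2, Control replicate 3 and JHU083 replicate 3) and 0 to 4 lower ones (1 without each Control replicate or JHU083 replicate 1, and 0 without JHU083 replicate 2). The fit with the photoreceptor term sets JHU083 replicate 3 alone against Control, so its calls rest on that 1 library. Some of these settings change the number of genes or libraries, and others keep both. The cause of the differing counts was not tested. Of the 41 members not called, 30 were called in no alternative. Over all genes, JHU083 calls of 1351 higher and 1480 lower became 867 higher with no minimum, 2524 and 2485 higher with limma, 951 lower with limma after adding 0.1, 884 higher in the fit of 2 groups, and 697 and 673 higher and 837 and 895 lower without Control replicates 2 and 3.

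Replicate numbers are shared by the groups. The correlations of same-numbered libraries' deviations were -0.09 to 0.07, and those of differently numbered libraries -0.12 to 0.11. No signal shared by number was seen, which cannot show whether the libraries were paired. With a replicate block, 6 members were called higher and 2 lower with JHU083 (median 0.14), 51 lower with WGFT17 against Control (median -2.71) and 49 against JHU083 (median -2.93).

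Precision is limited by 3 libraries per group and by counts made from coverage, about 4 of which stand for 1 read pair. The lowest member counts were 31 to 47 in the WGFT17 libraries, for Cenpm and Cdc25c.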

Other observations

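The 5 genes outside the lists whose pattern over the 9 libraries was most like the mean of the standardised members were Plxdc2, Stmn1, P4ha3, Dclk1 and Sfrp1, with Pearson's r of 0.9985 to 0.999, given as a description of 9 libraries in 3 groups. Stmn1 encodes stathmin, which destabilises microtubules. It was at 51.4, 56.4 and 51.9 FPKM in Control, 56.7, 56.5 and 65.2 with JHU083 and 8.63, 8.00 and 8.71 with WGFT17. Sfrp1 encodes a secreted inhibitor of Wnt signalling. It was at 7.04, 7.98 and 5.67 FPKM in Control, 10.4, 6.97 and 8.12 with JHU083 and 0.11, 0.07 and 0.09 with WGFT17. P4ha3, a subunit of a collagen prolyl hydroxylase, was at 8.84 to 9.44 FPKM in Control, 9.75 to 10.8 with JHU083 and 1.35 to 1.58 with WGFT17. Their log2 changes with WGFT17 against Control were -2.76 for Stmn1, -6.28 for Sfrp1 and -2.72 for P4ha3, chosen here because they follow the members.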
